A study of Rattus norvegicus with 12 samples.

Results

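The presynaptic vesicle release machinery is described here through 45 genes listed by name, with earlier results of these data known, in 5 groups by role: SNARE fusion proteins with their helpers, synaptotagmins and other calcium sensors, proteins carried on synaptic vesicles, proteins of the active zone with the priming factors, and endocytosis proteins. A probe on the array was found for 42 of them, among 15155 genes that could be named on 30367 probes. No probe was found for Ppfia3, Cadps2 and Sh3gl2. Where a gene had several probes, the brightest over all arrays stood for it. The cells were primary hippocampal neurons of Wistar rat embryos taken at embryonic day 18 and grown for 14 to 15 days. They met oxygen and glucose deprivation (OGD), a culture model of ischemia in which cells sit in glucose-free saline in an anaerobic chamber, here for 2 h, and then recovered in conditioned medium for 7 h or 24 h. Control neurons spent the same period in saline with glucose in an air and CO2 incubator and were collected at the same times. RNA of 3 independent cultures per group, pooled from 2 wells of each, was hybridized to 12 single-color Agilent arrays, so that each of the 4 groups holds 3 arrays. A value is the log2 signal of the probe relative to the median probe of its array. A difference is OGD minus control on that log2 scale, and the percent of control beside it is the same difference on the linear scale.

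In a nerve terminal, vesicles loaded with transmitter dock at the active zone, where scaffold proteins and Munc13 factors make them ready to fuse. Syntaxin-1, SNAP-25 and synaptobrevin (VAMP) form the SNARE complex that pulls vesicle and plasma membrane together, complexins and synaptotagmins couple fusion to calcium entry, and NSF with its SNAP adaptors takes the spent complex apart. Dynamin, amphiphysin and synaptojanin then recover the membrane by endocytosis.

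The arrays were not equally bright. The median spot intensity was 234.2 units on OGD 7 h replicate 1 and 130.6 on OGD 24 h replicate 1, and lay between 363.8 and 660.3 on the other 10 arrays. Each of the 6 slides carried one control and one OGD culture sharing time and number, and the OGD arrays of 7 h replicates 1 and 2 and of 24 h replicate 1 were scanned before their control. Of the 42 probes, 41 were well above background on all 12 arrays, and that of Syn3 was on 10. Defining neuron markers were present (Map2 averaged 5.14 and 5.59 on the control arrays of 7 h and 24 h, and Rbfox3 −1.06 and −0.81), and so were the astrocyte markers Gfap (6.1 and 6.54) and Aqp4 (7.66 and 7.54), so the cultures also held glial RNA. In such bulk samples fewer neurons and less RNA per neuron cannot be told apart.

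At 24 h of recovery the release genes lay low as a group. Of the 42, 23 fell at an unadjusted p under 0.05 in limma, 0 rose, and 36 had a difference below 0. Among all 15155 named genes 8109 had a difference below 0. Across all 30367 probes, 6.19% were lower and 7.51% higher by the same rule. A gene is said to have fallen or risen where it passed this unadjusted threshold, and the p-values printed are those adjusted over all probes. The median difference of the 42 was −0.87, against 0.01 over all probes. A fold of at least 2 was reached by 14 of the 23, against 1.96% of all probes, and by 0 that were higher, against 3.71%. Of the 42 genes, 22 had all OGD arrays below all control arrays, against 7.02% of all probes. After adjustment over all probes none passed, the lowest adjusted p among these genes being 0.265 in limma, and 0% of all probes passed either. The methods' t-test within each time, run on the same values, called 4 of the 42 lower and 0 higher, against 1.92% and 4.42% of all probes.

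At 7 h the picture was mixed. In limma 4 of the 42 genes fell (Unc13b, Napa, Syt2 and Doc2a), against 7.03% of all probes, and 4 rose (Unc13a, Unc13c, Erc1 and Erc2), against 4.79%. The median difference was −0.31, against −0.06 over all probes, and 28 genes lay below 0. Of all 15155 named genes 9070 lay below 0 at that time. A fold of 2 was reached by 1 gene that fell and 2 that rose, against 1.66% and 2.08%. Groups without overlap were seen in 14 genes that were lower and 5 that were higher, against 15.5% and 10.6% of all probes. The lowest adjusted p was 0.240 in limma, and 0% of all probes passed adjustment. The methods' t-test called 7 genes lower and 4 higher at 7 h, against 9.7% and 5.77% of all probes. Napa, Doc2a and Unc13b were lower at both times, against 2.04% of all probes. The 4 genes that rose all belong to the active zone and priming group.

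**Figure D1:**
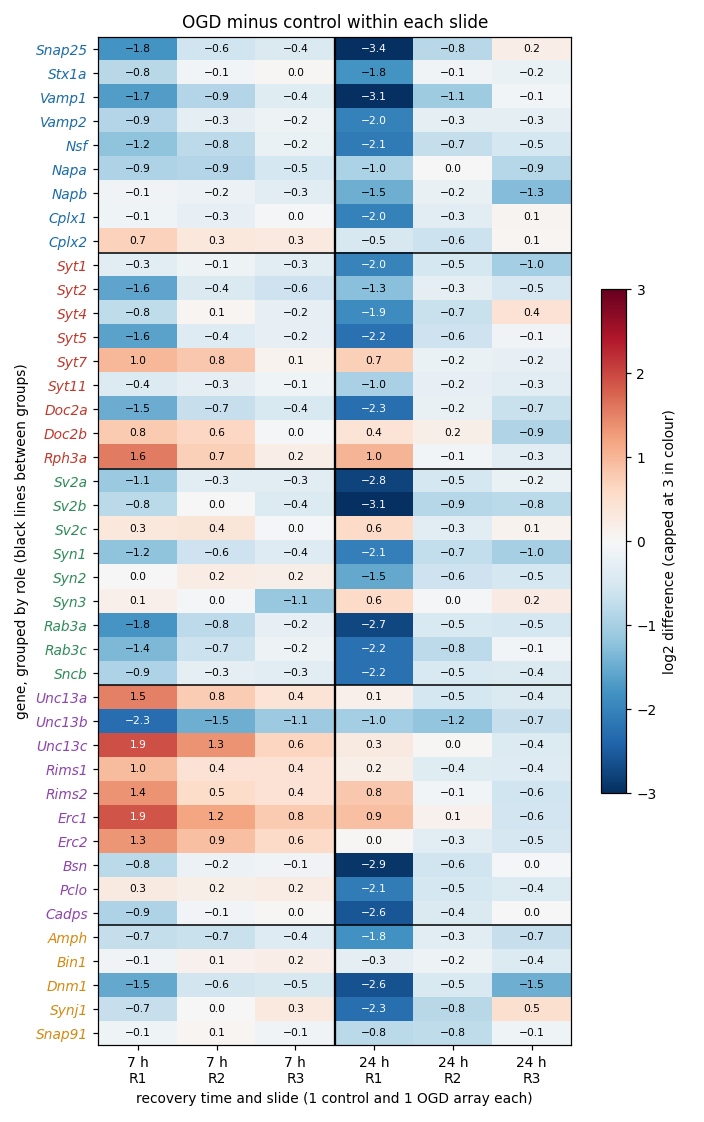
Log2 difference between the OGD and the control array of each slide (columns, 3 slides at 7 h and 3 at 24 h) for the 42 genes with a probe (rows, gene names colored and divided by role), blue for lower and red for higher after OGD. The column of 24 h replicate 1 is the darkest blue, with a median of −1.80 against −0.44 and −0.40 on the other slides of that time, and the red cells at 7 h lie mostly in the active zone group.

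Among the 9 SNARE fusion genes, 5 fell at 24 h (Vamp1, Vamp2, Nsf, Napa and Napb) and the group's median difference was −0.87. Vamp1, a synaptobrevin of the vesicle membrane, read 6.32, 5.68 and 5.10 on the control arrays and 3.20, 4.62 and 5.02 on the OGD arrays at 24 h. The OGD arrays lay below all controls there, replicate 3 only narrowly, and the difference was −1.42 ± 0.47 (log2 difference ± SE, 37.4% of control, adjusted p = 0.29). Vamp2, the main synaptobrevin of forebrain synapses, read 6.87, 6.73 and 6.36 on the control arrays and 4.84, 6.44 and 6.08 after OGD. The ranges of Vamp2 overlapped, with 1 OGD array far below the rest, and its difference was −0.87 ± 0.36 (log2 difference ± SE, 54.8% of control, adjusted p = 0.339).

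The genes that recycle the SNARE complex fell at 24 h as well. Nsf, the ATPase that separates used SNARE proteins, read 3.75, 3.93 and 3.63 in control and 1.64, 3.21 and 3.10 in OGD cultures, with no overlap, and differed by −1.12 ± 0.40 (log2 difference ± SE, 46.1% of control, adjusted p = 0.3). Napb, a neuronal SNAP adaptor of NSF, read 2.36, 1.94 and 1.85 against 0.89, 1.72 and 0.55 and differed by −1.0 ± 0.34 (log2 difference ± SE, 50% of control, adjusted p = 0.292). Napa, the widely expressed adaptor, was already lower at 7 h, when it read 4.45, 4.57 and 4.37 on the control and 3.52, 3.69 and 3.84 on the OGD arrays. No OGD array reached the lowest control then, and the difference was −0.78 ± 0.24 (log2 difference ± SE, 58.3% of control, adjusted p = 0.278). At 24 h Napa differed by −0.61 ± 0.24 (log2 difference ± SE, 65.6% of control, adjusted p = 0.317), but OGD replicate 2 read 4.52, within the control range.

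The target-membrane SNAREs passed no test. Snap25, the SNARE anchored to the plasma membrane by its lipid tails, read 6.56, 6.12 and 6.05 on the control arrays at 7 h and 4.76, 5.54 and 5.63 after OGD. All OGD arrays lay below the controls, yet with a difference of −0.94 ± 0.63 (log2 difference ± SE, 52.2% of control, adjusted p = 0.568). At 24 h it read 6.98, 6.82 and 6.41 against 3.54, 6.0 and 6.61. OGD replicate 1 lay far down and OGD replicate 3 within the control range, and the difference was −1.36 ± 0.63 (log2 difference ± SE, 38.9% of control, adjusted p = 0.374). Stx1a, syntaxin-1A of the plasma membrane, differed by −0.30 ± 0.37 at 7 h and −0.69 ± 0.37 at 24 h (adjusted p = 0.773 and 0.423). The probes of Stx1a and of the complexin gene Cplx1 were saturated on 3 arrays each, which compresses their differences.

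Among the 9 calcium sensors, 4 fell at 24 h (Syt1, Syt5, Syt11 and Doc2a), with a group median of −0.68. Syt1, the calcium sensor of fast synchronous release, read 2.75, 2.36 and 2.17 on the control and 0.75, 1.84 and 1.14 on the OGD arrays at 24 h. Every OGD array lay below the lowest control, and the difference was −1.18 ± 0.32 (log2 difference ± SE, 44.1% of control, adjusted p = 0.267). At 7 h Syt1 differed by −0.28 ± 0.32 (adjusted p = 0.758), with overlapping arrays. Syt5 differed at 24 h by −0.99 ± 0.40 (log2 difference ± SE, 50.5% of control, adjusted p = 0.332) and Syt11, which lacks calcium binding of its own, by −0.51 ± 0.20 (log2 difference ± SE, 70% of control, adjusted p = 0.316), both without overlap.

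Doc2a, a high-affinity calcium sensor tied to spontaneous release, was lower at both times. It read 2.43, 2.42 and 1.87 on the control arrays against 0.94, 1.73 and 1.42 at 7 h, without overlap, and differed by −0.87 ± 0.38 (log2 difference ± SE, 54.6% of control, adjusted p = 0.414). At 24 h it differed by −1.05 ± 0.38 (log2 difference ± SE, 48.4% of control, adjusted p = 0.311), with overlapping arrays. Syt2, the fast sensor of many hindbrain and inhibitory synapses and dim here, read −1.31, −1.33 and −1.33 on the control arrays at 7 h. After OGD it read −2.89, −1.76 and −1.94, apart from the controls, and differed by −0.88 ± 0.32 (log2 difference ± SE, 54.5% of control, adjusted p = 0.337). Rph3a, a Rab3 effector, went the other way at 7 h without passing the test, with −0.31, 0.00 and −0.08 on control and 1.25, 0.73 and 0.13 on OGD arrays (difference 0.83 ± 0.39, adjusted p = 0.442).

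The vesicle-associated genes fell most evenly at 24 h, 7 of 9, with a group median of −1.04, and 7 had no overlap between groups. Sv2b, a glycoprotein of the vesicle membrane, read 0.53, 0.30 and −0.19 on the control and −2.58, −0.55 and −1.01 on the OGD arrays at 24 h. Replicate 1 was the lowest by far, the other OGD arrays still lay below all controls, and the difference was −1.59 ± 0.46 (log2 difference ± SE, 33.2% of control, adjusted p = 0.269). Its paralog Sv2a differed by −1.18 ± 0.48 (log2 difference ± SE, 44.3% of control, adjusted p = 0.33).

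The synapsins tether vesicles to each other and to actin. Syn1 read 3.58, 3.93 and 3.68 on control and 1.52, 3.18 and 2.70 on OGD arrays at 24 h, without overlap, and differed by −1.26 ± 0.36 (log2 difference ± SE, 41.7% of control, adjusted p = 0.269). At 7 h it read 2.87, 2.91 and 2.67 against 1.66, 2.30 and 2.28, again apart, but the difference of −0.74 ± 0.36 (log2 difference ± SE, 60% of control, adjusted p = 0.458) missed the threshold. Syn2 read 4.97, 4.78 and 4.46 against 3.44, 4.16 and 3.92 at 24 h and differed by −0.90 ± 0.24 (log2 difference ± SE, 53.7% of control, adjusted p = 0.265), the smallest p of the 42 genes at that time. At 7 h the Syn2 difference was 0.13 ± 0.24 (adjusted p = 0.856). The arrays of Syn2 thus separated at 24 h and mixed at 7 h.

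The small GTPases that guide vesicles to the active zone followed at 24 h. Rab3a read 4.88, 4.85 and 4.52 against 2.15, 4.39 and 4.0 and differed by −1.24 ± 0.51 (log2 difference ± SE, 42.4% of control, adjusted p = 0.333). Rab3c differed by −1.03 ± 0.38 (log2 difference ± SE, 48.8% of control, adjusted p = 0.311). Sncb, beta-synuclein, differed by −1.04 ± 0.38 (log2 difference ± SE, 48.8% of control, adjusted p = 0.309). All 3 genes had OGD arrays below every control array at that time. The remaining members of the group, Sv2c and the dim Syn3, passed no test at either time.

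The active zone and priming genes moved in both directions. At 7 h 4 of the 10 with a probe rose and 1 fell, 7 were higher on all 3 slides, and the group median was 0.69. Of all 15155 named genes 3042 were higher on all 3 slides at 7 h. At 24 h 4 fell (Unc13b, Bsn, Pclo and Cadps), 0 rose, and the median was −0.27. Unc13c encodes Munc13-3, a priming factor best known from the cerebellum, and its probe was dim. It read −3.08, −2.99 and −3.24 on the control and −1.15, −1.65 and −2.61 on the OGD arrays at 7 h, without overlap, and differed by 1.30 ± 0.40 (log2 difference ± SE, 247% of control, adjusted p = 0.28). At 24 h it differed by −0.03 ± 0.40 (adjusted p = 1).

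Erc1 and Erc2 encode ELKS scaffold proteins of the active zone. Erc1 read −0.37, 0.09 and −0.47 in control and 1.51, 1.27 and 0.32 in OGD cultures at 7 h, without overlap, and differed by 1.28 ± 0.42 (log2 difference ± SE, 243% of control, adjusted p = 0.302). Erc2 read 1.70, 1.94 and 1.58 against 3.04, 2.85 and 2.14, also apart, and differed by 0.94 ± 0.33 (log2 difference ± SE, 191% of control, adjusted p = 0.331). Unc13a, the main Munc13 priming factor of excitatory synapses, read 1.28, 1.67 and 1.23 against 2.79, 2.44 and 1.65. OGD replicate 3 of Unc13a lay just below the highest control, and the difference was 0.90 ± 0.35 (log2 difference ± SE, 186% of control, adjusted p = 0.365). The scaffold genes Rims1 and Rims2 pointed the same way at 7 h without passing the test (0.61 ± 0.29, adjusted p = 0.451, and 0.77 ± 0.39, adjusted p = 0.462). The direction of the group median, Rims1 and Rims2 depended on the scaling. Arrays were also scaled to the single usable spike-in probe, which moves the median of all probes to −0.86 at 7 h and −1.01 at 24 h. With that scaling the group median at 7 h turns to −0.12, and Rims1 and Rims2 turn to −0.20 and −0.03. Unc13c (0.50), Erc1 (0.47), Erc2 (0.13) and Unc13a (0.09) stay above 0 without passing the test. The spike-in probe itself was uneven within groups. Relative to the array median it read −2.6, −1.4 and −1.5 on control and −0.2, −1.0 and −1.9 on OGD arrays at 7 h. At 24 h it read 2.7, 2.5 and 3.0 on control and 6.32, 3.07 and 1.85 on OGD arrays.

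Unc13b, which encodes Munc13-2, stood against its paralogs. It read 0.75, 1.12 and 0.66 on the control and −1.53, −0.35 and −0.43 on the OGD arrays at 7 h and the groups lay far apart. The difference of −1.61 ± 0.39 (log2 difference ± SE, 32.7% of control, adjusted p = 0.24) had the smallest p of the 42 genes at 7 h. At 24 h it read −0.01, 0.92 and 0.72 against −1.03, −0.26 and 0.04, with control replicate 1 now within the OGD range, and differed by −0.96 ± 0.39 (log2 difference ± SE, 51.5% of control, adjusted p = 0.329). Bsn and Pclo, the giant scaffolds Bassoon and Piccolo, differed at 24 h by −1.18 ± 0.46 (log2 difference ± SE, 44% of control, adjusted p = 0.317) and −1.01 ± 0.35 (log2 difference ± SE, 49.6% of control, adjusted p = 0.294), both without overlap. Cadps, a priming factor of dense-core vesicles, differed by −1.01 ± 0.43 (log2 difference ± SE, 49.7% of control, adjusted p = 0.349).

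Of the endocytosis genes 3 of 5 fell at 24 h, and the group median was −0.87. Dnm1, the neuronal dynamin that cuts vesicles from the membrane, read 3.08, 3.01 and 2.88 on the control and 0.47, 2.56 and 1.41 on the OGD arrays. The controls lay close together and the OGD arrays spread widely below them, with a difference of −1.51 ± 0.45 (log2 difference ± SE, 35% of control, adjusted p = 0.272). Amph, amphiphysin, read 4.39, 4.15 and 4.09 against 2.58, 3.82 and 3.41 and differed by −0.94 ± 0.30 (log2 difference ± SE, 52% of control, adjusted p = 0.29). Snap91, the clathrin adaptor AP180, differed by −0.57 ± 0.20 (log2 difference ± SE, 67.5% of control, adjusted p = 0.298). Neither Bin1 nor Synj1 passed the test, and at 7 h no gene of the group did.

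**Figure D2:**
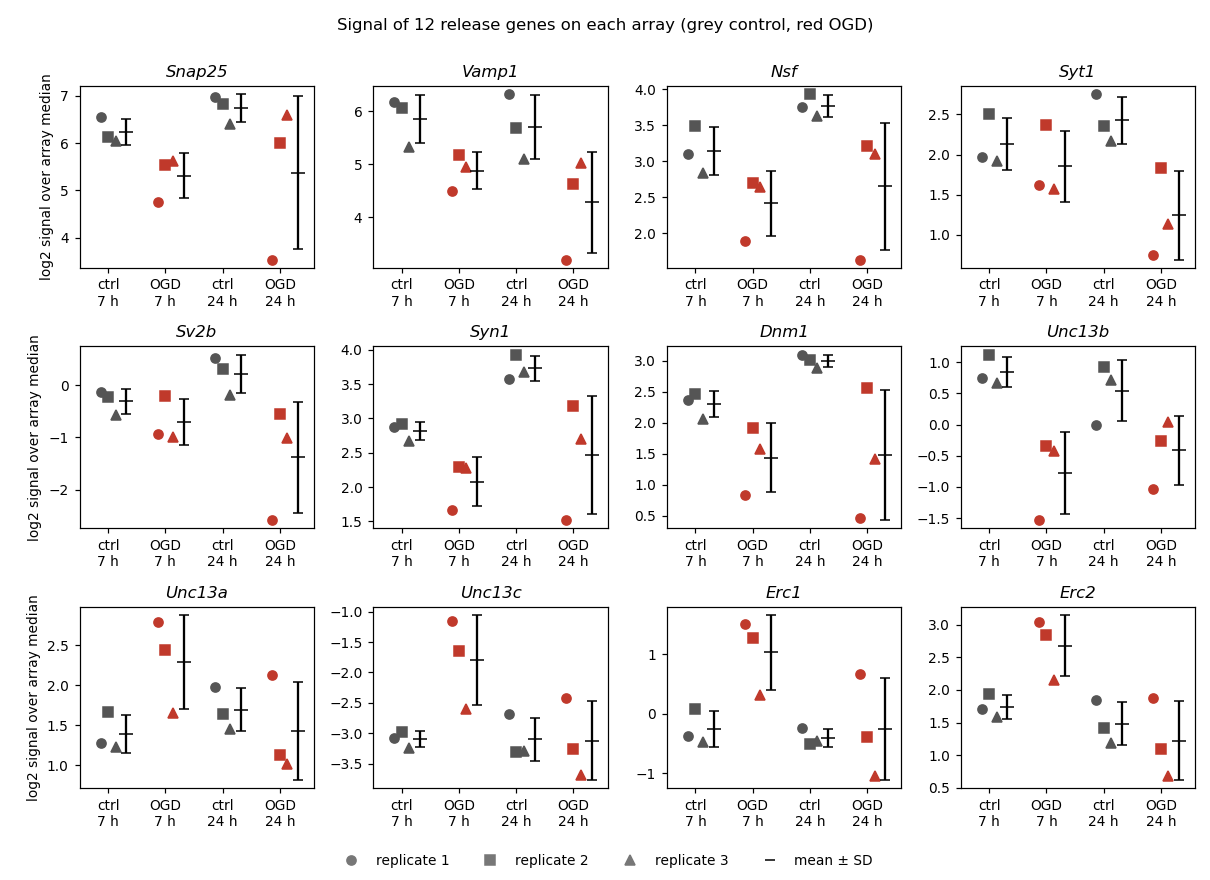
Signal of 12 release genes on each of the 12 arrays (vertical axis, log2 relative to the array median; horizontal axis, control and OGD at 7 h and 24 h), with symbols for the replicates and a bar for the mean ± SD of 3 arrays. Replicate 1 after OGD (circle) is the lowest OGD point at 24 h in the first 8 genes, and in Unc13c, Erc1 and Erc2 the OGD points at 7 h lie above all controls of that time.

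The response itself differed between the times in 6 genes at an unadjusted p under 0.05 in limma, all more negative at 24 h (Cplx2, Syn2, Unc13a, Unc13c, Erc2 and Pclo), against 1.4% of all probes in that direction, and in 0 genes the other way, against 2.18%. Syn2 differed by −1.02 ± 0.34 (24 h minus 7 h, log2 ± SE) and Erc2 by −1.20 ± 0.47. For Unc13c, Pclo and Unc13a the values were −1.33 ± 0.56, −1.24 ± 0.49 and −1.16 ± 0.50. Cplx2, a complexin that clamps and promotes fusion, passed no test at a single time (0.43 and −0.35) but differed between them by −0.79 ± 0.31. None passed adjustment (the lowest adjusted p is 1), and for the remaining 36 genes a difference between times was not shown. For all 42 genes the median of this difference was −0.54, against 0.05 over all probes. It was below 0 in 38 of them and in 6839 of all 15155 named genes.

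**Figure D3:**
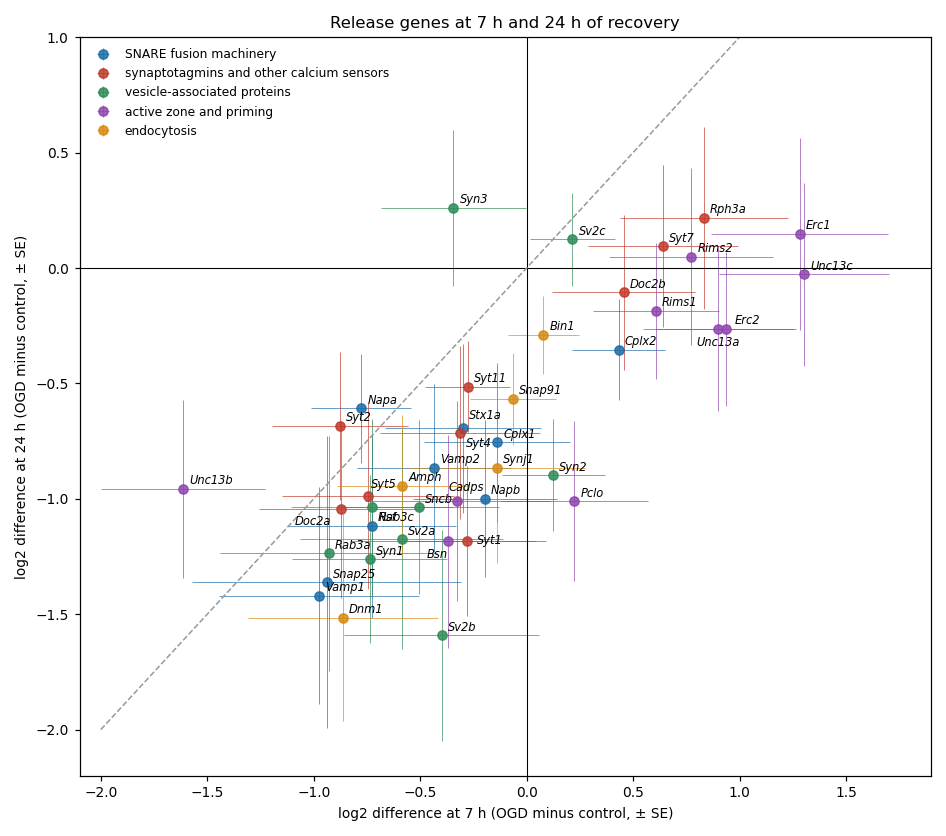
Log2 difference at 7 h (horizontal axis) against that at 24 h (vertical axis) for the 42 genes, with SE bars from limma and colors by role; the dashed line marks equal differences. Of the 42 points 38 lie below the line, the active zone genes Erc1, Unc13c, Unc13a and Erc2 stand at the right near 0 at 24 h, and Unc13b stands alone at the left.

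How far the falls at 24 h go depended on the arrays of replicate 1. Without OGD 24 h replicate 1, the dimmest array, 10 genes were still lower (Vamp1, Napb, Syt1, Sv2b, Syn1, Syn2, Sncb, Amph, Dnm1 and Snap91), against 5.77% of all probes. The median difference of the 42 was −0.47, against −0.003 over all probes, and 41 lay below 0. A fold of 2 was then reached by 1 gene. Without control 24 h replicate 1 the count was 9, against 2.49% of all probes, and without control 24 h replicate 2 it was 13, against 3.58%. Syt1, Sv2b, Syn1, Syn2, Amph and Dnm1 were called lower at 24 h with any single array of the 12 left out, against 1.63% of all probes, and no gene was called higher, against 2.76%. At 7 h the same held for Napa and Unc13b (lower, 2.4% of all probes) and for Unc13c and Erc1 (higher, 1.4%).

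Within slides, the median difference of the 42 genes was −0.70, −0.12 and −0.14 on replicates 1 to 3 at 7 h and −1.80, −0.44 and −0.40 at 24 h. It was below 0 on every slide. The slides whose arrays were scanned together were 7 h replicate 3 and 24 h replicates 2 and 3. Medians of all named genes were −0.16, −0.01 and 0.01 at 7 h and −0.15, −0.06 and 0.16 at 24 h. The active zone group had medians of 1.14, 0.48 and 0.42 at 7 h, above 0 on each slide with the centring on the array median. The part of array brightness and scan order in these sizes was not tested.

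The direction also went with the brightness of the probe at 7 h. Genes with a mean level of 0 to 2 had a median difference of 0.42 at 7 h (12 genes), those of 4 to 6 one of −0.78 (7 genes) and those of 6 and over −0.31 (10 genes). All probes in the same ranges had medians of −0.09, −0.12 and 0.20. At 24 h the same ranges of release genes had medians of −0.61, −1.18 and −0.81, and all probes −0.09, −0.14 and 0.09. On single slides, however, the medians of all probes did move with the level: on 24 h replicate 1 from 0.65 below a level of −2 to −0.50 between 2 and 6, on 7 h replicate 1 from 0.25 to −0.44, and on 7 h replicate 3 the other way, from −0.45 to 0.26. At a level of 6 and over they came back to 0.08 on 24 h replicate 1 and to 0.22 on 7 h replicate 1. The part of such a level dependence in the differences of the release genes was not tested.

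**Figure D4:**
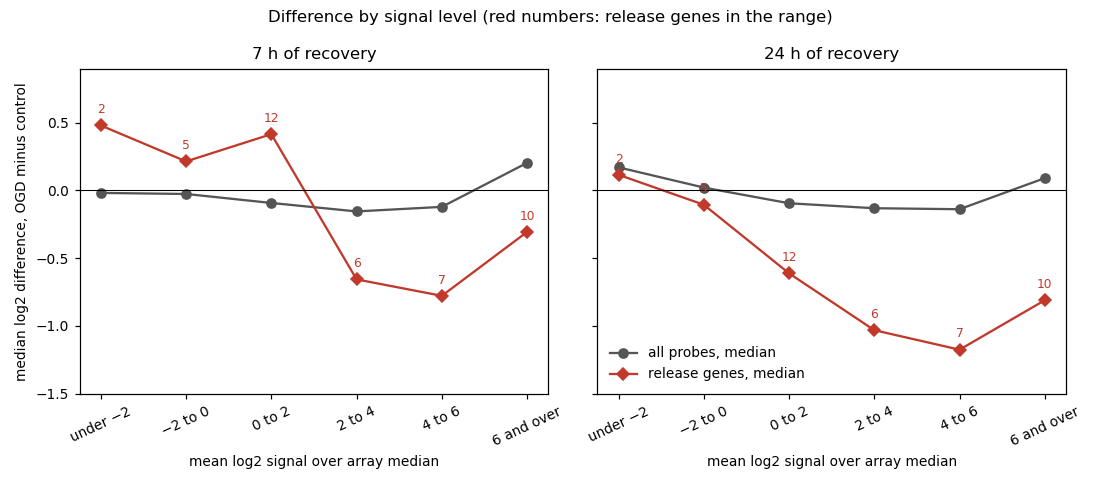
Median log2 difference, OGD minus control (vertical axis), of the release genes (red, number of genes beside each point) and of all probes (grey) in 6 ranges of the mean signal (horizontal axis, log2 relative to the array median), at 7 h and 24 h. The grey medians stay between −0.15 and 0.20, and the red ones reach −0.78 at 7 h and −1.18 at 24 h in the range from 4 to 6.

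A second probe was present for 12 of the genes. The other Snap25 probe differed by −1.25 at 7 h and −1.56 at 24 h (adjusted p = 0.471 and 0.332), and so passed the test at 24 h. The other Vamp1 probe gave 0.13 at 7 h and −0.59 at 24 h (adjusted p = 0.844 and 0.315), where the brighter one gave −0.98 and −1.42. Second probes of Cplx1 and Cadps passed the test at 24 h, with −1.14 and −0.60 (adjusted p = 0.298 and 0.331), and that of Cadps lay at 0.38 at 7 h, above 0. The second probe of Unc13c was well above background on only 3 arrays and gave 0.37 at 7 h (adjusted p = 0.772), so the rise of Unc13c rests on 1 probe. For Erc2 the other probe gave 0.52 at 7 h (adjusted p = 0.407), in the same direction, and 0.21 at 24 h (adjusted p = 0.684). That of Bsn gave −0.37 at 7 h and −0.65 at 24 h (adjusted p = 0.388 and 0.252). The second Pclo probe gave 0.34 at 7 h and −0.61 at 24 h (adjusted p = 0.684 and 0.409) and passed neither test. The difference at 24 h minus that at 7 h was −0.31, 0.07 and −0.95 for the second probes of Erc2, Unc13c and Pclo. None of these passed the limma test of a difference between times.

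Further presynaptic genes also fell at 24 h. Of 34 with a probe among 40 listed, 15 fell and 0 rose, with a median of −0.73, against 6.19% lower and 7.51% higher over all probes. At 7 h 10 had fallen and 0 had risen, against 7.03% and 4.79% of all probes. The smallest p-values belonged to Syt12 (−1.02 at 7 h and −0.64 at 24 h), Syt3 (−1.10 and −1.53), Stxbp5 (−0.34 and −0.78), Syt13 (−0.97 and −1.09) and Itsn1 (−0.76 and −0.91). The study's own lists of changed genes, made from these arrays, include Snap25, Syt1, Unc13b, Unc13c, Erc1 and Syt3. Of 31 widely expressed relatives that serve membrane traffic in many cell types, 2 fell and 3 rose at 24 h, with a median of −0.19. These counts are near the share of all probes, 6.19% lower and 7.51% higher. Vamp8 (0.95), Vamp3 (0.37) and Snap23 (0.48) were the genes that rose at 24 h (adjusted p = 0.316, 0.335 and 0.355), and Sh3gl1 (−0.62) and Stx3 (−0.39) fell.

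Cell type markers give the frame for these values. Of 18 neuronal markers without a presynaptic role 7 fell and 0 rose at 24 h, against 6.19% and 7.51% of all probes. Among those that fell were Eno2 (−1.06), Camk2a (−0.65), Ina (−0.80) and Map2 (−0.45), while Rbfox3 differed by −0.59 (adjusted p = 0.369). The median of the 18 was −0.55. Their summed signal ranged from 1497 to 1910 times the array median on the control and from 1058 to 1613 on the OGD arrays at 24 h. That sum holds probes saturated on several arrays (Uchl1 on 10, Stmn2 on 6, Gap43 on 5 and Mapt on 4), which compresses its change. At 7 h Eno2 (−1.09) fell, and the median was −0.06. Tbr1 and Uchl1 also passed the test at 7 h, but the Tbr1 probe was well above background on 1 array only and that of Uchl1 was saturated on all 3 control and 2 OGD arrays of that time, so their differences are not read here.

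None of the 11 astrocyte markers passed the test at 24 h (median −0.12). Slc1a3 and Aldoc passed it at 7 h, but the Slc1a3 probe was saturated on all 3 controls of that time and the Aldoc probe on all 6 arrays, so their differences are not read here. The summed signal of the 11 ran from 1035 to 1263 on control and from 938.1 to 1342 on OGD arrays at 24 h, a sum compressed by saturated probes (Aldoc on 11 arrays, Slc1a3 on 5 and Aqp4 on 2). Of 12 microglia markers Cd68 (0.96) rose at 24 h and Cx3cr1 (1.02) at 7 h, with summed signals of 21.1 to 25.67 and of 25.54 to 35.76 at 24 h; Itgam was well above background on 3 arrays only and Aif1 differed by 0.29. Olig2 (0.48) rose at 24 h among 12 oligodendrocyte markers, Cspg4 and Sox10 fell at 7 h, and Mbp passed no test. Among 11 vascular and fibroblast markers Pdgfrb (1.34) rose at 24 h, Cldn5 and Pecam1 passed the test at 7 h with lower values but were well above background on only 6 and 9 arrays, and Col1a1 differed by 1.5 (adjusted p = 0.404), with summed signals of 38.63 to 142.8 and of 131.8 to 238.3 at 24 h. Oligodendrocyte markers summed to 260.9 to 359.1 and to 300.3 to 490.4. Of 18 hypoxia genes, Adm (1.39 at 7 h and 1.06 at 24 h) rose at both times, Slc2a3 (0.80) at 7 h and Hmox1 (1.87) and Hk2 (0.94) at 24 h, while Pdk1 fell at both times and Vegfa (−1.0) at 24 h. The Ldha probe was saturated on all 6 arrays at 7 h and is not read here. Over all probes 6.19% were lower and 7.51% higher at 24 h, and 7.03% and 4.79% at 7 h. The part of a changed mix of cells in the falls of the release genes was not tested.

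**Figure D5:**
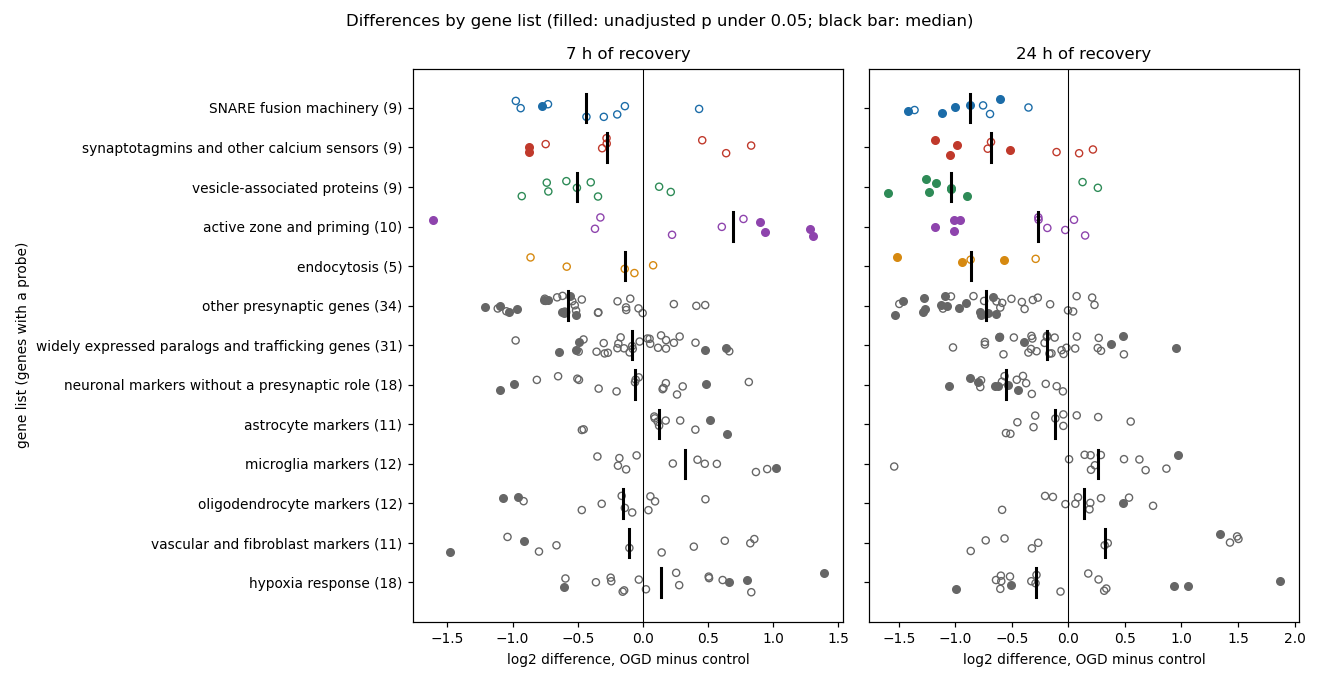
Log2 difference, OGD minus control (horizontal axis), of every gene with a probe in the 5 groups of release genes (colored) and in 8 further lists (grey), at 7 h (left) and 24 h (right); filled points passed limma at an unadjusted p under 0.05 and black bars are medians. At 24 h the medians of the SNARE, vesicle and endocytosis groups lie between −0.87 and −1.04, that of neuronal markers at −0.55 and that of the widely expressed relatives at −0.19.

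Promoter sequences were read for all listed genes, also for those that passed no test or had no probe. RefSeq promoters (build GRCr8, 250 bases before to 50 after the start) were found for 37 of the 45 genes, 38 sequences in all because Unc13b has 2. Both strands were searched for CAGCACC and GGACAG, the outer parts of the RE1 element that the repressor REST binds in neuronal genes, and for TGACGT, part of the cyclic AMP response element. CAGCACC was present in 8 of the 38 (21.1%, against 6.78% of all 33469 promoters), namely those of Bsn, Rab3c, Rph3a, Sncb, Sv2b, Syn1, Syt4 and Unc13a. GGACAG was in 11 (28.9%, against 21.7%), and Rab3c, Rph3a and Unc13a held both words. The words lay on opposite strands in Rab3c, overlapped in Rph3a and were spaced apart on the same strand in Unc13a. TGACGT was in 8 (21.1%, against 7.94%), namely Erc1, Napa, Rab3a, Sh3gl2, Sncb, Syn1, Vamp1 and Vamp2, and in Napa, Sh3gl2, Syn1 and Vamp1 matches on both strands overlapped. Of the 21 promoters of genes lower at 24 h, CAGCACC was in 5 (23.8%), GGACAG in 5 (23.8%) and TGACGT in 6 (28.6%). Of the 4 promoters of genes higher at 7 h, each word was in 1. The 38 promoters were also richer in G and C, with a median of 67% against 51.7%. Shown are Syn1 and Vamp1, which fell at 24 h, and Erc1, which rose at 7 h, all with a TGACGT match. Capitals mark the matches to the 3 searched words on either strand.
Syn1, chrX:3725495-3725794, + strand: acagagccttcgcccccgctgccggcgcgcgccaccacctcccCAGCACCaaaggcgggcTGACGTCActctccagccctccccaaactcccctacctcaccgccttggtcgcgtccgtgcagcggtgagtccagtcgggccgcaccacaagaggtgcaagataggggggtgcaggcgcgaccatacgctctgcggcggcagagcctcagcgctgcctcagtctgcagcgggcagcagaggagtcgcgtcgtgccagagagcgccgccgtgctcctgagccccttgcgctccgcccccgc
Vamp1, chr4:159698644-159698943, + strand: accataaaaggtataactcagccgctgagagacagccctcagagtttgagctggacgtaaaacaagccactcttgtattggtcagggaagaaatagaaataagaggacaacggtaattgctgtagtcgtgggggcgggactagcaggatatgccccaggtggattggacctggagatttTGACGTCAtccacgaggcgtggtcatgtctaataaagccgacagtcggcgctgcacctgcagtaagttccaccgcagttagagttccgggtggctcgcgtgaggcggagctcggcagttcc
Erc1, chr4:154727938-154728237, - strand: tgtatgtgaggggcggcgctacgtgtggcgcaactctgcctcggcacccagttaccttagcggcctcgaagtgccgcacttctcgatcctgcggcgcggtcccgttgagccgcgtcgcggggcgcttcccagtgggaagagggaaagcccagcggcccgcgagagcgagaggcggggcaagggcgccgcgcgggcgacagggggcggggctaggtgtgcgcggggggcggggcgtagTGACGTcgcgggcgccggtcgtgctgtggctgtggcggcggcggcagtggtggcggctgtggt
Syn1 holds CAGCACC and, after a short gap, the overlapping TGACGT matches; Vamp1 and Erc1 hold only the latter word, Erc1 on a single strand. A match describes letters in this window and not a site in use.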

How the data were processed

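Total RNA of 3 cultures per group was labeled with Cy3 and hybridized to Agilent rat arrays designed on rn4. The deposited intensity of each spot was made by the authors with Feature Extraction 10.5.1.1, which subtracted the background and corrected spatial trends. The deposited log2 values of the authors are the same intensities after median centring, within 0.01 of a constant shift for 100% of the probes. For the analysis here, spots carrying a non-uniformity or population outlier mark were dropped, the rest were put on the log2 scale and averaged per probe, and each array was centred on its median. Probes were named by accession through the RefSeq gene table (18004 probes; GRCr8), and Erc1 through the study's supplementary lists. The 4 groups were fitted in 1 model with limma 3.58.1 in R 4.3.3, with two-sided p-values, a threshold of 0.05 and Benjamini-Hochberg adjustment over 30367 probes. The fit was tested on simulated data. The members and lists were chosen with earlier results of these data known. All 42 genes could be named. Of other lists, the 5 with the smallest p, fixed markers, and, chosen after their values were seen, genes in a direction with 5 or fewer calls were named. The alternatives were other centrings, quantile normalization, spike-in scaling, normexp on the median signal (mean signals were not analysed here), the authors' values, the methods' t-test, each time alone, slide or replicate blocks, a filter on dim probes, the mean over probes, and each array left out. The number of arrays limits the precision.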

Additional observations from a re-analysis of the deposited data

Results flagged for a closer look

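The response differed between the times, tested as an interaction in limma, for 6 release genes at an unadjusted p under 0.05, each more negative at 24 h and none after adjustment (adjusted p = 1 for each). The log2 difference at 24 h minus that at 7 h was −0.79 for Cplx2, −1.02 for Syn2, −1.16 for Unc13a, −1.33 for Unc13c, −1.20 for Erc2 and −1.24 for Pclo. The second probes of Unc13c, Erc2 and Pclo gave 0.07, −0.31 and −0.95 and did not pass this test. Unc13a, Unc13c and Erc2 had risen at 7 h and passed no test at 24 h. Syn2 and Pclo had passed no test at 7 h and fell at 24 h, and Cplx2 passed none at either time.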

How the results depend on the processing

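The falls at 24 h (23 genes) and the calls at 7 h (8 genes) kept their direction under the 24 alternatives, except that Syt2 at 7 h turned to 0.013 with the normexp background. The count lower at 24 h dropped to 13 with each time fitted alone, 9 with spike-in scaling and 4 with the methods' t-test, and those with a fold of 2 to 9, 9 and 1, while the share of all probes called lower dropped from 6.19% to 2.5%, 1.7% and 1.92%. The count lower at 7 h was 14, 1, 7 and 11 with each time alone, spike-in scaling, the methods' t-test and normexp. That of genes higher at 7 h was 0 with spike-in scaling, and with a fold of 2 it was 4 with the 75th percentile, 1 with the mean over probes, 1 with normexp and 0 with spike-in scaling. Normexp gave 10 genes lower at 7 h with a fold of 2. The medians of the 42 genes were −1.11 at 7 h and −1.89 at 24 h with spike-in scaling, and −0.73 at 7 h with normexp. The count of genes more negative at 24 h than at 7 h was 3 with the 75th percentile and 0 with normexp and with spike-in scaling. The cause was not tested.

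Values that had passed no test turned sign as follows. With normexp, Cplx2, Syn2 and Pclo at 7 h were −0.16, −0.42 and −0.10. With spike-in scaling they were −0.37, −0.68 and −0.58, Rims1 and Rims2 −0.20 and −0.034, and the active zone median at 7 h −0.12. Unc13c at 24 h was 0.085 with the 75th percentile, 0.21 with the mean over probes and 0.33 with normexp.

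When single arrays were dropped, the count lower at 24 h ran from 9 to 27 (1 to 21 with a fold of 2) and that at 7 h from 2 to 15 (1 to 3). The count higher at 7 h ran from 2 to 8 (1 to 6), and that more negative at 24 h from 1 to 10. The medians of the 42 genes ran from −1.01 to −0.47 at 24 h and from −0.50 to −0.20 at 7 h, the endocytosis median at 7 h from −0.37 to 0.0065, Syn2 at 7 h from −0.019 to 0.25, Unc13c at 24 h from −0.38 to 0.26 and Erc2 at 24 h from −0.59 to 0.0016. Without OGD 24 h replicate 1, the calls at 7 h rose to 15 lower and 7 higher, and those of all probes to 11.6% and 9.48%. Without OGD 7 h replicate 1 they were 2 and 2, against 3.37% and 2.25% of all probes.

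The replicate numbers were checked as pairs: deviations of same-numbered control and OGD arrays from their group means correlated at −0.05, 0.11 and −0.01 at 7 h and 0.08, 0.17 and −0.01 at 24 h, so the numbers were not taken to pair the cultures. With the slide as a fixed replicate block, 17 genes were lower at 24 h, and 4 were lower and 5 higher at 7 h; as a random block, 23, 4 and 4. With the replicate number over all groups as a block, added after seeing the data, 8 genes were higher and 5 lower at 7 h, 23 were lower at 24 h, and 9 were more negative at 24 h than at 7 h.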
